A study of Mus musculus with 10 samples.

Results

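The nuclear genes of respiratory complex I were examined in the hippocampus of mice with and without neuronal PGC-1α overexpression. Members were all genes whose symbol starts with Ndufa, Ndufb, Ndufc, Ndufs or Ndufv, the Ndufaf assembly factors included, and that had a probe assigned through its RefSeq accession. This gave 46 genes with 56 probes, out of 23462 named genes on the array. Of these, 45 members with 53 probes could be tested, against 17597 named genes tested in all. The reference table held 54 symbols of this form, and the 8 without a probe were Ndufb1 and the copies or pseudogenes Ndufa11b, Ndufa12-ps, Ndufab1-ps, Ndufb4b, Ndufb4c, Ndufs5-ps and Ndufs6b. Each gene was read by its brightest tested probe, and the other probes served as a check.

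Both groups carried a PGC-1α transgene at Rosa26 behind a floxed PGK-neo-STOP cassette on a C57BL/6 background. In PGC-1αf/f mice the cassette was intact and the transgene silent. In nPGC-1α mice it was removed by Cre under the Eno2 promoter, which is active in neurons. Each group had 5 mice, given by the labels as male and aged 12 weeks, in basal conditions, with 1 array per mouse. Total RNA of the hippocampus was hybridised, so the values average neurons, glia and vessels, although the labels name the cell type as neuron. In such bulk tissue, fewer cells of a type and less RNA per cell cannot be told apart.

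Complex I, NADH:ubiquinone oxidoreductase, is the entry point of electrons from NADH into the mitochondrial respiratory chain. Its N module oxidises NADH, its Q module passes the electrons through Fe-S clusters to ubiquinone, and its membrane arm pumps protons. The catalytic core is built partly from nuclear and partly from mitochondrial genes, supernumerary subunits surround the core, and assembly factors join the modules without staying in the finished enzyme. PGC-1α is a transcriptional coactivator known to act on genes of oxidative phosphorylation through NRF1, the oestrogen-related receptors (ERR) and the Ets factor GABP. The comparison addresses whether complex I transcripts differed in the hippocampus when the neuronal transgene was released.

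Promoter windows show which of these binding sequences lie near the members' start sites. RefSeq windows of build GRCm38.p6, from 250 bases before to 50 bases after a start site, were held for 39 of the 45 tested members and for 13865 of the named genes tested. A gene counted if any of its windows held the letters on either strand. The 3 stretches below carry the ERR site, AAGGTCA (reverse strand TGACCTT), in capitals with 20 bases on each side, and they are the only members with it. They lie upstream of the start site and are written along the strand of the gene.
Ndufb2, plus strand, chr6:39592364-39592410: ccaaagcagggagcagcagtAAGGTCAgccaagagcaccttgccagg
Ndufb4, minus strand, chr16:37654397-37654443: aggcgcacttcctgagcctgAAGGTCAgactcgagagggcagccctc
Ndufs5, minus strand, chr4:123718388-123718434: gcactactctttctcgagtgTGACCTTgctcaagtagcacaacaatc
The NRF1 core, CGCATGCG, is shown for the 2 members that hold it far enough upstream for the same flanks.
Ndufa11, plus strand, chr17:56717683-56717730: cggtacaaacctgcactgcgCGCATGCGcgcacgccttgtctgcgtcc
Ndufaf4, plus strand, chr4:24897951-24897998: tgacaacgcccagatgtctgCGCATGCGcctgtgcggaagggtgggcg
The Ets core bound by GABP, CCGGAAG, is shown for Ndufs3, a core subunit.
Ndufs3, minus strand, chr2:90904722-90904768: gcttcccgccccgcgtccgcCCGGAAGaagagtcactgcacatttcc

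The NRF1 core was present in 4 of 39 members (10.3%), namely Ndufa8, Ndufa11, Ndufaf4 and Ndufaf5, and in 3.3% of all named genes tested. The ERR site was present in 7.7% of members and 4.3% of all genes. The Ets core was as frequent in members as in all genes, at 15.4% each. The YY1 core, ATGGCGG, was present in 9 members (23.1%) and in 7.4% of all genes. At least 1 of these motifs lay in 21 members (53.8%), against 26.9% of all genes. In Ndufa9, Ndufaf8, Ndufb5, Ndufs6 and Ndufs7 the YY1 core lay 13 to 36 bases after the start site, along the strand of the gene. Over all windows of the reference table, 449 YY1 cores after the start lay along that strand and 162 on the opposite one. The shares above therefore count letters in transcribed sequence too, do not show binding, and carry no test.

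The arrays differed in ways that touch the members. Replicate 1 of each group had 10.52% (PGC-1αf/f) and 11.63% (nPGC-1α) of its spots marked as outliers by the scanner software, against 0.19% to 4.75% on the other arrays, and such spots were left out. Of the members' probes, 18 were marked on PGC-1αf/f replicate 1 and 15 on nPGC-1α replicate 1, against 0 to 5 elsewhere. Spots well above background made up 74.48% to 81.51% on PGC-1αf/f arrays and 67.24% to 73.44% on nPGC-1α arrays. The noise value of the scanner software was 5.16 to 8.98 signal units on PGC-1αf/f arrays and 10.71 to 20.87 on nPGC-1α arrays. Although every mouse is labelled male, the Y-linked transcripts Kdm5d, Uty, Ddx3y and Eif2s3y were all well above background on only 4 arrays. These were replicate 1 of PGC-1αf/f, and replicates 1, 3 and 5 of nPGC-1α. The other 6 arrays lacked at least 1 of the 4 transcripts at that level and may have held others of them. Ppargc1a, the gene of PGC-1α, was at 2.20 ± 0.08 on the arrays labelled PGC-1αf/f and 2.20 ± 0.11 on those labelled nPGC-1α (log2 level, SD, n = 5 each). Whether its probe reads the transgene is not known, so every direction below rests on the labels. The 6 neuronal and 6 hippocampal markers were all above background on all 10 arrays, and the median difference was -0.03 for the first list and 0.07 for the second. Choroid plexus markers were spread widely, with Ttr from -3.71 to 2.54 and without a value on nPGC-1α replicate 3. The median deviation of this list from the midpoint of both group means was highest on that array, at 2.76. The median difference was -0.01 over astrocyte markers, 0.26 over oligodendrocyte markers and -0.18 over microglial markers. Among these 14 tested genes 1, Tmem119 of microglia, passed an unadjusted limma p of 0.05 (-0.21, limma p 0.0437), where 5.03% of all genes were lower. The part of these markers in the results below was not tested.

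No member differed between the groups at an adjusted p of 0.05 in the limma fit over all 39142 probes. The count was 0 of 45, where 0.00568% of all named genes were called, and the smallest adjusted p of a member was 0.364. At an unadjusted p of 0.05, 1 member, Ndufa4l2, was higher in nPGC-1α (2.22% of members), where 3.18% of all genes were higher. No member was lower at that level, where 5.03% of all genes were lower. These shares varied with brightness when all genes were cut by mean signal into 10 classes of equal size. In the dimmest class, which held no member, 17.06% were lower. In the brightest, which held 35 of the 45 members, 1.25% were lower and 0.11% higher. The members gave no more calls than all genes together in either direction, but most members were brighter than the genes that set the lower share.

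The differences, nPGC-1α minus PGC-1αf/f on the log2 scale, were small and mostly below 0. Their median was -0.10 over 45 members, with 39 below 0 and 6 above, beside a median of -0.02 over all genes, of which 9971 of 17597 were below 0. The sign of this median did not change under quantile normalisation (-0.01, all genes 0.04), normexp correction with quantile normalisation (-0.02, all genes 0.00) or in the authors' log2 values (-0.03, all genes -0.01), but the number of members below 0 fell to 27 of 45, 29 of 45 and 30 of 46. The standard errors of single members were 0.08 to 0.15. Of the 45 intervals, 44 held 0. The lowest limit of any 95% confidence interval was 0.723-fold (Ndufa4, 3 arrays per group) and the highest was 1.36-fold (Ndufab1). Without PGC-1αf/f replicate 1 the median moved to -0.06, and with Y-linked transcripts as a block it was -0.12. With the slide as a block it was -0.10. Within slide 1, which held replicates 1 to 4 of both groups, it was -0.12 over 41 members. On that slide all PGC-1αf/f arrays lay in row 1 and all nPGC-1α arrays in row 2. Group and row therefore cannot be told apart there. Slide 2 held 1 array per group and gave no test.

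**Figure D1:**
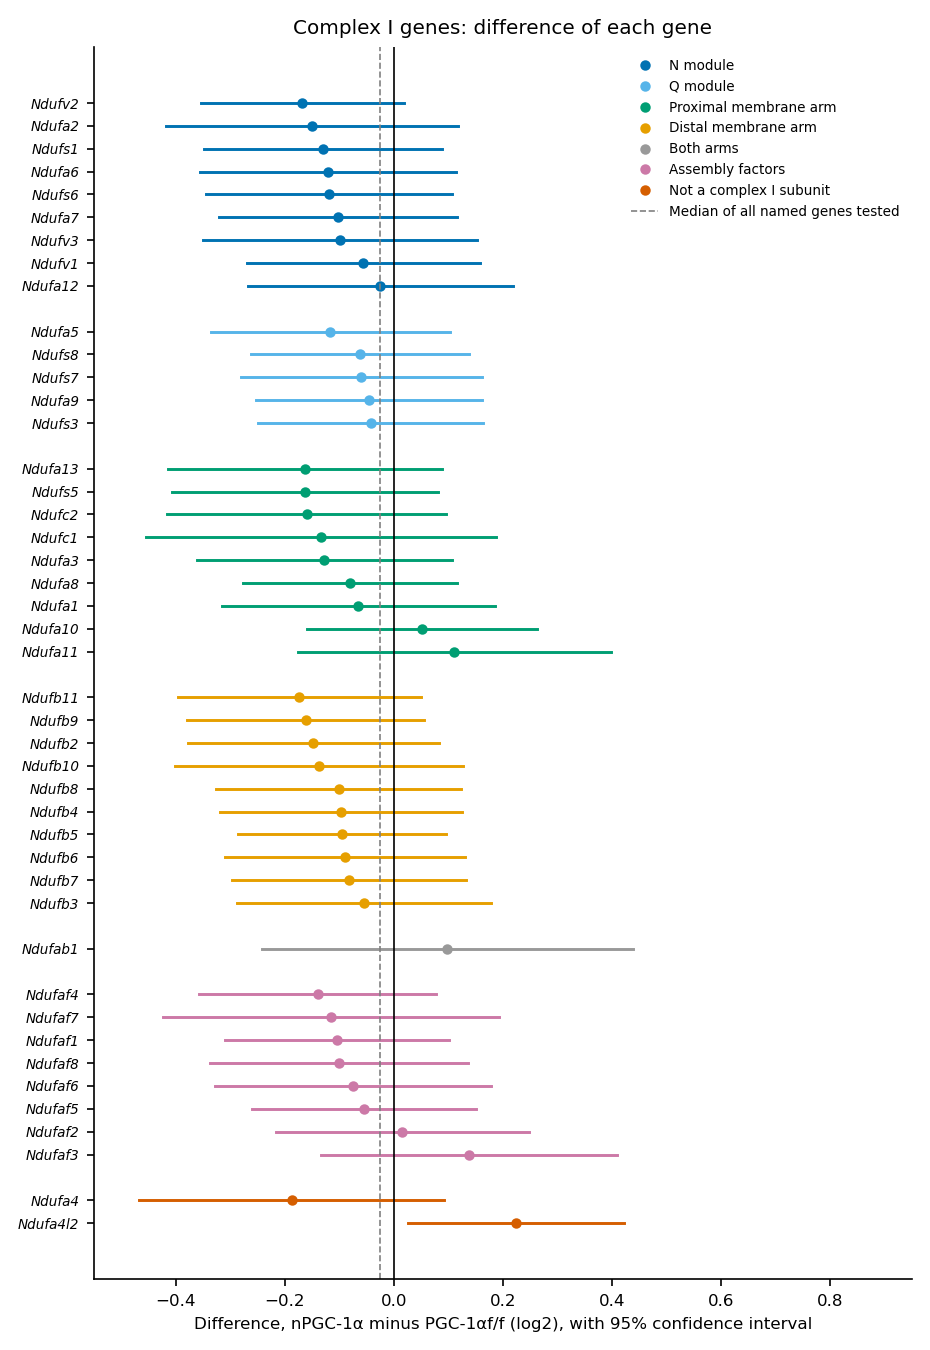
Difference of complex I genes (nPGC-1α minus PGC-1αf/f, log2, x axis) with the 95% confidence interval from limma, by module; 44 of the 45 tested members are drawn. Most points lie below 0, and of the intervals drawn that of Ndufa4l2 leaves out 0; under quantile normalisation 27 of all 45 members lie below 0.

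The 9 tested genes of the N module, which takes electrons from NADH, had a median difference of -0.12 and all lay below 0, from Ndufv2 at -0.17 to Ndufa12 at -0.03. Under quantile normalisation their median was -0.03 and 6 of 9 lay below 0. Ndufv2, a core subunit with an Fe-S cluster, had the lowest p of the subunits. Its levels on the PGC-1αf/f arrays were 3.33, 3.11, 3.06, 3.19 and 3.14 for replicates 1 to 5. Those on the nPGC-1α arrays were 3.13, 2.95, 2.91, 2.97 and 3.03. All 5 nPGC-1α arrays lay under the PGC-1αf/f mean, but the groups overlapped, since nPGC-1α replicate 1 was above PGC-1αf/f replicates 2 and 3. The difference had an interval of -0.35 to 0.02 and a limma p of 0.0722, adjusted 0.465, and the exact two-sided permutation p was 0.0238. It was -0.04 under the scaling that moved it most. Its limma p was under 0.05 in 3 of 22 other settings. These were Y-linked transcripts as a block (-0.22, limma p 0.0357), leaving out nPGC-1α replicate 1 (-0.20, limma p 0.0428, adjusted p 0.406) and the replicate number as a block. Ndufv2 was picked out here after its values were seen.

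Ndufv1, which binds NADH and flavin, was at 2.82 ± 0.12 in PGC-1αf/f and 2.76 ± 0.14 in nPGC-1α (log2 level, SD, n = 5 each). Ndufs1, the largest Fe-S subunit of this module, was at 2.65 ± 0.09 and 2.52 ± 0.08 (SD, n = 4 each), with replicate 1 of both groups left out as outliers. The difference of Ndufs1 was -0.13 with an interval of -0.35 to 0.09. Ndufs4, a supernumerary subunit whose loss is a mouse model of Leigh syndrome, could not be tested because its probe was marked on 5 of 10 arrays. With those spots kept, its levels ran from 2.53 to 3.00 in PGC-1αf/f and from 2.46 to 2.64 in nPGC-1α, and the groups overlapped.

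The 6 genes of the Q module, which holds the ubiquinone site, had a median difference of -0.05, with 6 of 6 below 0, and the sign of the median turned with the scaling (0.04 under quantile normalisation, 0.02 under normexp correction and 0.02 in the authors' values). Ndufs7, the carrier of the last Fe-S cluster in the chain, was at 3.15 ± 0.13 in PGC-1αf/f and 3.09 ± 0.14 in nPGC-1α. Ndufs3, a scaffold of this module, was at 2.98 ± 0.13 and 2.94 ± 0.11. Ndufs8, a further Fe-S subunit, was at 3.29 ± 0.09 and 3.23 ± 0.13 (log2 levels, SD, n = 5 per group for these 3 genes). In each, the difference was smaller than the spread within either group. Over the 7 nuclear core subunits of both modules the median difference was -0.06 with 7 of 7 below 0, and it was 0.04 with 2 of 7 below 0 under quantile normalisation.

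The 9 genes of the proximal membrane arm had a median difference of -0.13, and 7 lay below 0 (under quantile normalisation -0.01 and 6 of 9). Ndufa13, also known as GRIM-19, was the brightest member. It was at 4.24, 3.96, 3.81, 3.95 and 3.74 on PGC-1αf/f replicates 1 to 5. On nPGC-1α replicates 1 to 5 it was at 4.00, 3.69, 3.61, 3.74 and 3.84. Replicate 1 was the highest array of each group, and the groups overlapped. The difference was -0.16 with an interval of -0.42 to 0.09 (limma p 0.182, adjusted p 0.597). Among other settings it ran from -0.25 with Y-linked transcripts as a block (limma p 0.0541) to -0.02 under normexp correction, and it was -0.09 without PGC-1αf/f replicate 1. Ndufa11 and Ndufa10 were the 2 genes of this arm above 0, at 0.11 and 0.05. Ndufa11, a subunit at the junction to complex III in the supercomplex, rested on 3 arrays per group. Its values were 1.46, 1.67 and 1.48 in PGC-1αf/f and 1.61, 1.66 and 1.66 in nPGC-1α, and the lowest nPGC-1α value was under the highest PGC-1αf/f value. In the authors' log2 values, which hold all 10 arrays, it was higher by 0.16 (limma p 0.044, adjusted p 0.402). With outlier spots kept in the main scaling it was higher by 0.14 (limma p 0.1). Of 15 other settings, 1 gave Ndufa11 a limma p under 0.05.

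All 10 tested genes of the distal membrane arm lay below 0, with a median of -0.10, from Ndufb11 at -0.17 to Ndufb3 at -0.06 (under quantile normalisation -0.01 and 8 of 10). Ndufb11, an X-linked supernumerary subunit, was at 2.79, 2.65, 2.32, 2.73 and 2.66 on PGC-1αf/f replicates 1 to 5. On nPGC-1α replicates 1 to 5 it was at 2.55, 2.36, 2.47, 2.39 and 2.51. PGC-1αf/f replicate 3 had the lowest value of all 10 arrays, and the other 4 PGC-1αf/f arrays were above every nPGC-1α array. The limma p was 0.116 with an interval of -0.40 to 0.05. Without PGC-1αf/f replicate 3 the difference was -0.25 (limma p 0.0154, adjusted p 0.289), and over all 10 arrays with Y-linked transcripts as a block it was -0.24 (limma p 0.0477). Ndufb11 was named after its values were seen. Ndufab1, the mitochondrial acyl carrier protein found in both arms, had the widest interval of all members, -0.24 to 0.44 around a difference of 0.10. Its levels ran from -2.25 to -1.43 in PGC-1αf/f and from -1.78 to -1.42 in nPGC-1α, with PGC-1αf/f replicate 5 lowest.

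The 8 Ndufaf assembly factors had a median difference of -0.09, with 6 below 0, and of -0.03, with 5 below 0, under quantile normalisation. Ndufaf3 and Ndufaf4 act together on the early Q module, and they had the highest and the lowest difference of this group, 0.14 and -0.14. Ndufaf3 was at 1.39 ± 0.16 (n = 3) in PGC-1αf/f and 1.53 ± 0.07 (n = 4) in nPGC-1α. Ndufaf4 was at 1.44 ± 0.10 (n = 4) and 1.30 ± 0.12 (n = 5). The interval was -0.13 to 0.41 for Ndufaf3 and -0.36 to 0.08 for Ndufaf4, so the opposite signs were within the error of each. A test of one gene against the other was not made.

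Ndufaf1, a partner in building the membrane arm, was at 1.45 ± 0.11 in PGC-1αf/f and 1.35 ± 0.13 in nPGC-1α (SD, n = 5 each, as for the others below unless stated). Ndufaf2, which acts late when the N module is attached, was at 2.35 ± 0.16 and 2.36 ± 0.06 (n = 5 and 4). Ndufaf5, a hydroxylase of Ndufs7, was at 1.46 ± 0.08 and 1.41 ± 0.03 (n = 4 each). Its partner Ndufaf8 was at 0.37 ± 0.16 and 0.27 ± 0.14. Ndufaf6, needed for an early membrane step, was at 0.57 ± 0.21 and 0.49 ± 0.12. Ndufaf7, a methyltransferase of the Q module, was at 1.13 ± 0.19 and 1.01 ± 0.26. For none of these 6 did the limma interval leave out 0.

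Of 12 further assembly factors outside the Nduf family, such as Acad9, Ecsit and Timmdc1, 11 were tested. At an unadjusted p of 0.05, 0 passed in either direction, where 5.03% of all genes were lower and 3.18% higher. The median difference of these 11 was -0.02, with 6 below 0 and 5 above, from Timmdc1 at -0.25 to Tmem186 at 0.06. None of the 7 mitochondrially encoded subunits was read by a probe with a matching accession, so they were not analysed here.

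Ndufa4 and its paralogue Ndufa4l2 carry complex I names, although Ndufa4 is now placed in cytochrome c oxidase, and they had the lowest and the highest difference of all members. Ndufa4l2 is known as a target of hypoxia-inducible factor and, in brain, as a gene of vascular mural cells. It was at -2.13, -2.43, -2.16, -2.23 and -2.23 on PGC-1αf/f replicates 1 to 5. On nPGC-1α replicates 1 to 5 it was at -2.05, -1.85, -2.00, -2.04 and -2.12. Every nPGC-1α array was above every PGC-1αf/f array, by 0.01 at the closest pair. The difference was 0.22 with a standard error of 0.09 and an interval of 0.03 to 0.42 (limma p 0.0296, adjusted p 0.364). The exact permutation p was 0.00794, the smallest that 5 against 5 arrays allow. Over 22 other settings the difference ran from 0.18 to 0.31 and the adjusted p from 0.22 to 0.839, and the unadjusted p was under 0.05 in 16. The settings in which it missed that level included quantile normalisation (0.31, limma p 0.113) and normexp correction with quantile normalisation (0.20, limma p 0.0507). It was also missed with the replicate number as a block. The same held without PGC-1αf/f replicate 2 or without nPGC-1α replicate 2 (0.18 each), and without nPGC-1α replicate 3 (0.22).

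Groups without overlap were found for 1 of 45 members in the higher direction, Ndufa4l2, where 0.932% of all genes had them, and for 1 in the lower direction, Ndufa4, where 1.43% had them. Spots of Ndufa4 bore the outlier mark on 4 arrays, which left 3 values per group. These were 3.42, 3.45 and 3.44 in PGC-1αf/f replicates 2, 4 and 5 and 3.13, 3.29 and 3.33 in nPGC-1α replicates 3, 4 and 5. The difference was -0.19 with an interval of -0.47 to 0.09 (limma p 0.156). With all spots kept, the PGC-1αf/f values ran from 3.30 to 3.67 and the nPGC-1α values from 3.13 to 3.58, so the groups overlapped and no member was without overlap in the lower direction.

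**Figure D2:**
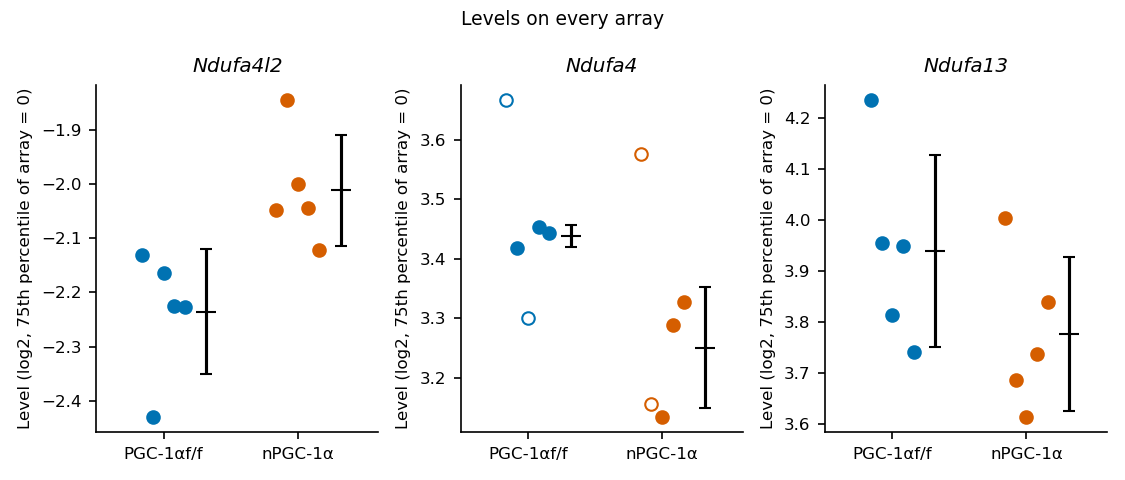
Levels of Ndufa4l2, Ndufa4 and Ndufa13 on each array (log2, 75th percentile of the array at 0; each y axis has its own range and does not start at 0). Filled points entered the test, open points were marked as outliers and left out, and bars give the mean ± SD of the filled points; the filled points do not overlap for Ndufa4l2 and Ndufa4, and the open points of Ndufa4 close the gap.

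Markers of vessel cells were set beside Ndufa4l2. Of 8 mural cell markers, 7 were tested and all 7 were above background on every array, with a median difference of 0.16. Abcc9 (0.34, limma p 0.0321) and Kcnj8 (0.22, limma p 0.0492), subunits of a potassium channel of pericytes, passed the unadjusted threshold. Of all genes, 3.18% were higher at that level. In this list 6 of 7 lay above 0, with Vtn at 0.03, while Higd1b was at -0.12. The median of this list was -0.18 to 0.00 on PGC-1αf/f arrays and -0.03 to 0.21 on nPGC-1α arrays. Over 4 endothelial markers the median difference was 0.20, and 0 of 4 passed. Of 8 targets of hypoxia-inducible factor, 1, Egln3 (0.35, limma p 0.0156), was higher and 0 were lower, where 3.18% and 5.03% of all genes were. The median of these targets was 0.05, with 5 above 0 and 3 below. No gene of these lists passed an adjusted p of 0.05, the mural and hypoxia lists were chosen after the values of Ndufa4l2 were seen, and their part in its difference was not tested.

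Arrays of 1 group differed in the level of the members as a whole. On each array, the median over members of the deviation from the midpoint of both group means was taken. It was 0.23, 0.06, -0.08, 0.11 and 0.00 on PGC-1αf/f replicates 1 to 5. On nPGC-1α replicates 1 to 5 it was 0.12, -0.08, -0.13, -0.08 and 0.00. The groups overlapped, with means of 0.06 ± 0.12 and -0.03 ± 0.10 (SD, n = 5 each). Of 31 members with all 10 values, 22 were highest on PGC-1αf/f replicate 1, against 23.6% of all genes with all values. On nPGC-1α replicate 3, 15 of the 31 were lowest, against 17.3% of all genes. Both shares were larger among members than among all genes. Under quantile normalisation the group means were 0.01 ± 0.11 and 0.02 ± 0.10, the opposite order. The order was as in the main scaling under normexp correction (0.02 and -0.01), in the authors' values (0.02 and -0.01) and with outlier spots kept (0.05 and -0.05).

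**Figure D3:**
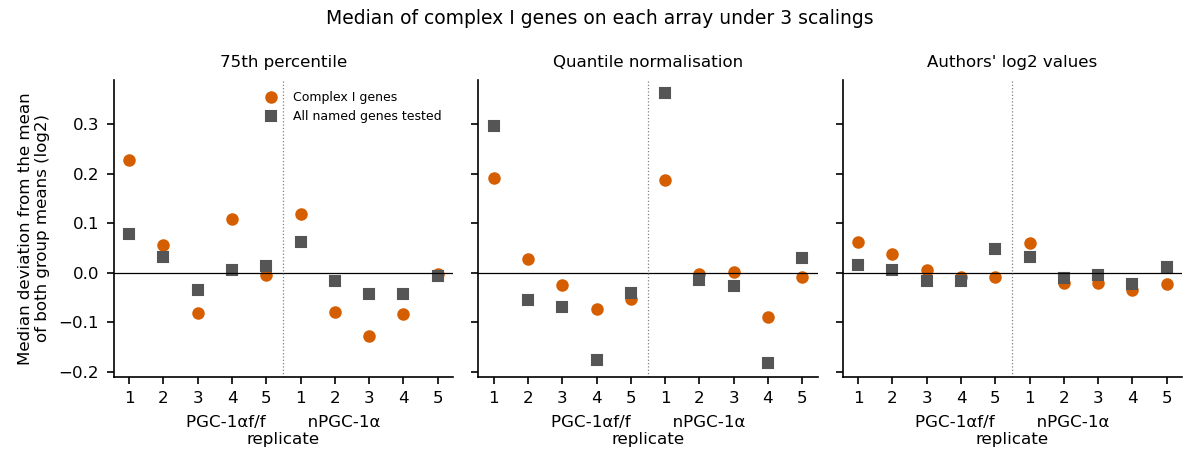
Median deviation of the complex I genes (circles) and of all named genes tested (squares) on each array (log2) under 3 scalings, each gene set against the midpoint of its group means. The complex I genes of PGC-1αf/f replicate 1 stand highest under the 75th percentile scaling, at 0.23, and the groups overlap under each scaling.

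The members were bright, and the difference varied with brightness over all genes. When all named genes were ordered by mean signal and cut into 10 classes of equal size, 35 of 45 members fell in the brightest class. In that class the 1760 genes had a median difference of -0.07 and 80.6% lay below 0, while its 35 members had a median of -0.10. In the middle classes the median over all genes was near 0, for example 0.01 in the sixth from the dim end, and in the dimmest class, which held no member, it was -0.17 with 71.5% below 0. The part of brightness in the members' differences was not tested.

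**Figure D4:**
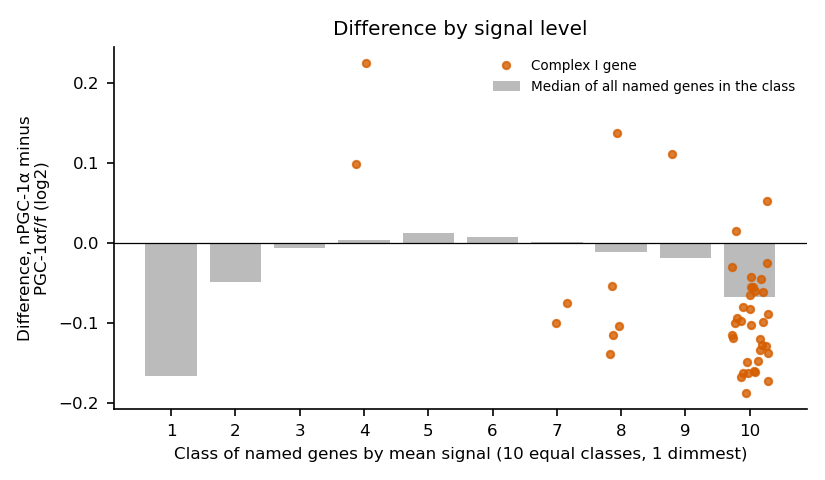
Difference (nPGC-1α minus PGC-1αf/f, log2) of all named genes by class of mean signal (10 classes of equal size, x axis, brightest last), as medians (bars), with each complex I gene as a point. The brightest class has a median of -0.07 and holds 35 of the 45 members, whose median there is -0.10; under quantile normalisation the median of all members is -0.01.

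For 8 members a second probe was tested. In 4 of them, Ndufa3, Ndufa5, Ndufa10 and Ndufb8, both probes had the same sign, and in the other 4 the dimmer probe was above 0. For Ndufv1 the brighter probe gave -0.06 ± 0.10 and the dimmer 0.20 ± 0.13 (SE). For Ndufaf5 they gave -0.05 ± 0.09 and 0.23 ± 0.22, and for Ndufaf7 -0.12 ± 0.14 and 0.02 ± 0.09. The largest gap, 0.29, was in Ndufb8, at -0.10 ± 0.10 by the brighter probe and -0.39 ± 0.19 by a probe assigned to another RefSeq transcript (limma p 0.0675). That second probe was far dimmer, with a mean level of -3.65 against 2.92 for the brighter. No second probe passed an unadjusted p of 0.05.

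**Figure D5:**
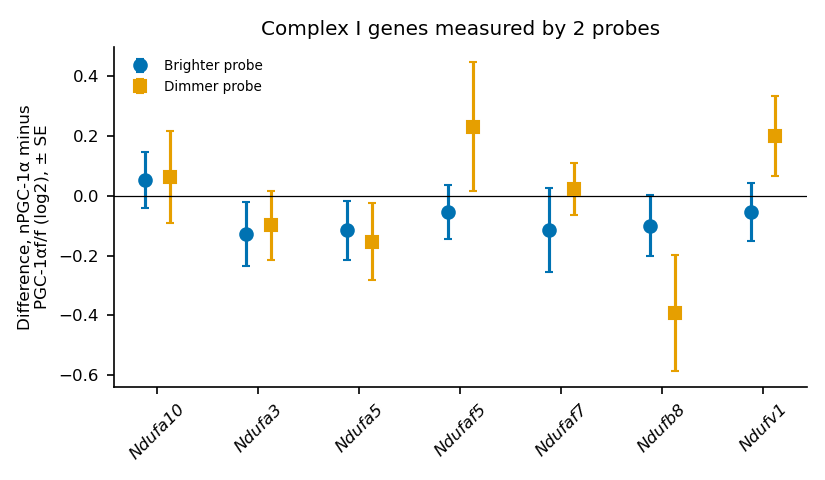
Difference (nPGC-1α minus PGC-1αf/f, log2) with its standard error for 7 members with 2 tested probes, the brighter as circles and the dimmer as squares. Signs are shared in 4 of the genes drawn and opposite in Ndufaf5, Ndufaf7 and Ndufv1.

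The differences were also set beside the promoter letters shown above. The 3 members with the ERR site were at -0.15 (Ndufb2), -0.10 (Ndufb4) and -0.16 (Ndufs5), a median of -0.15 against -0.10 in those without it. Members with the NRF1 core had a median of -0.07 against -0.10 without it, and they included Ndufa11 above 0 and Ndufaf4 below 0. The medians with and without the Ets core were -0.09 and -0.10, and with and without the YY1 core -0.10 and -0.10. None of these members passed an unadjusted p of 0.05.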

How the data were processed

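One-colour (Cy3) Agilent arrays of hippocampal RNA were read from scanner files. Per the file headers, the deposited intensity of each spot is the signal after background subtraction by Feature Extraction 11.5.1.1. A second deposited table holds log2 values made by the authors with GeneSpring for 41606 probes, and was used as an alternative. Controls and outlier-marked spots were dropped. The log2 intensity was taken relative to the 75th percentile of each array, so a level of 0 equals that percentile. A probe was tested if every array of 1 or both groups had it well above background and each group had 3 or more values (39142 probes). The number of arrays limits the precision.

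Symbols came from RefSeq (GRCm38.p6) through accessions, for 59.7% of probes. Groups came from the labels. Differences were tested with the two-sided test of limma 3.58.1 (R 4.3.3), with no covariate and with Benjamini-Hochberg adjustment over all probes, and the test was tested on simulated data. Separate mice were given 1 array each. Python 3.11.15 was used for reading and exact permutation tests. The alternatives were other scalings, filters, blocks, array weights and leaving out each array.

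The members, gene lists, motifs and tests were chosen with earlier results of these data known. Values on every array were given for members with an unadjusted p under 0.05, the largest rise and fall, the brightest and dimmest member and Ndufa4 with Ndufa4l2, and group means for core subunits and Ndufaf genes; others named on every array were chosen after their values were seen. The single values of 1 member are not reported here.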

Additional observations from a re-analysis of the deposited data

How the results depend on the processing

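No member passed an adjusted p of 0.05 in limma under any of the 22 alternative settings fitted. The median difference over members stayed below 0 in all of these, from -0.129 without PGC-1αf/f replicate 3 to -0.007 under quantile normalisation, and leaving out 1 array at a time gave -0.129 to -0.055. The count of members higher at an unadjusted p of 0.05 went from 1 to 0 under quantile normalisation and under normexp correction with quantile normalisation. It went to 2 in the authors' log2 values, where Ndufa11 joined Ndufa4l2. Of all genes, 3.32%, 4.31% and 3.76% were higher in these settings. The count of members lower went from 0 to 2 with Y-linked transcripts as a block (Ndufb11 and Ndufv2), where 5.23% of all genes were lower. It went to 1 by the exact Mann-Whitney U test, where 3.6% of all genes were lower. Leaving out 1 array gave 0 to 1 member in each direction: Ndufa4l2 was lost without PGC-1αf/f replicate 2 or nPGC-1α replicates 2 or 3, Ndufb11 passed without PGC-1αf/f replicate 3, and Ndufv2 passed without nPGC-1α replicate 1. Of all genes, 3.35% to 6.22% were lower and 2.17% to 3.91% higher in those fits. The difference of Ndufa4 shrank from -0.19 to -0.04, -0.06 and -0.05 under quantile normalisation, normexp correction and the authors' values. The causes were not tested.

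Over all probes, the 1 call at an adjusted p of 0.05 became 0 under normexp correction, with probes above background on all arrays, with slide as a block and with Y-linked transcripts as a block. It became 10 with array weights and 4619 without the filter on dim probes, and leaving out 1 array gave 0 to 4. Without that filter, probes near background were tested too, and the noise value was higher on every nPGC-1α array (at least 10.71 signal units) than on any PGC-1αf/f array (at most 8.98). The part of noise in those calls was not tested.

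Replicate numbers were shared between groups, and on slide 1 same-numbered arrays also shared a slide column. There the shares of outlier spots (PGC-1αf/f, then nPGC-1α) were 10.52% and 11.63%, 2.81% and 4.22%, 3.05% and 3.51%, and 0.19% and 0.24% for numbers 1 to 4. Correlations of the deviations across probes were 0.215, 0.078, 0.113, 0.18 and 0.356 for numbers 1 to 5. Each correlation was above 0. For nPGC-1α replicates 1 and 5 the best match was the same-numbered PGC-1αf/f array, while for replicates 2, 3 and 4 it was number 3, 4 and 3. The main test used no block for the replicate number, and whether the numbers mark shared handling was not tested. With the replicate number as a block, 1 member was lower at an unadjusted p of 0.05 (Ndufv2, -0.17, limma p 0.0461, adjusted p 0.293), 0 were higher (Ndufa4l2 0.22, limma p 0.0583) and 0 probes passed the adjusted threshold. Of all genes, 7.06% were lower and 4.39% higher at an unadjusted p of 0.05 in that fit.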
